A study of Mus musculus with 14 samples.

Results

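Potassium channel genes encode the pore-forming and accessory subunits of the channels that carry potassium across the cell membrane. They were read from bead arrays of 14 mouse glioblastomas, 1 tumour per array. Genes were taken by symbol: all Kcn genes of the voltage-gated, inward rectifier, leak and ion-activated families, with their beta, KChIP, KCNE and BK beta accessory subunits. Kcnj8, Kcnj13 and Kcne2 were left out. The array held 82 such genes on 158 probes. Of these, 48 genes on 64 probes had a probe with a detection p-value under 0.05 on at least 3 of the 14 arrays, which is 58.5% of the potassium channel genes and compares with 63.8% of all 18484 named genes on the array. One of the 48, Kcnq1ot1, is a long non-coding RNA that matched by its symbol and encodes no channel.

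Voltage-gated channels open on depolarization and repolarize the cell, inward rectifiers and two-pore-domain leak channels set the resting potential, and calcium- or sodium-activated channels open when those ions enter. Accessory subunits bind the pore subunits and change their gating, trafficking or inactivation. In brain, neurons use Kv channels to shape firing, and astrocytes use inward rectifier and leak channels to hold a negative membrane potential and take up potassium.

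Type 1 tumours came from Nestin-CreERT2 mice and Type 2 tumours from NG2-CreERTM mice, with 7 tumours of each. All mice were of mixed background and carried floxed Trp53 on both alleles, Nf1f/+ and a Rosa-lsl-tdTom reporter, and all were given oral tamoxifen once when 6 to 8 weeks old, at 10 mg per 20 g of mouse, and were kept until they had symptoms. Nestin marks neural stem and progenitor cells, and NG2 marks oligodendrocyte progenitors and pericytes, so each driver can recombine more than a single cell type. The question was how tumours from the different drivers differ. Values are normalized log2 signals, differences are Type 1 minus Type 2 on that scale, and a gene is called when its limma p-value, with batch in the fit and Benjamini-Hochberg adjustment over 11786 genes, is under 0.05.

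The labels give 2 batches. Batch 1 holds 3 Type 1 and 4 Type 2 tumours, and batch 2 holds 4 of Type 1 and 3 of Type 2. They lay on 5 chips, none of which held both types, so chip and type cannot be told apart. Between 19299 and 20868 probes were detected per array. Type 1 tumour 1 stood apart in choroid plexus genes, with a list mean of 10.35 against 5.32 to 5.58 in the other Type 1 tumours. The highest Type 2 value of that list was 8.17, in Type 2 tumour 5, against 5.24 to 6.68 in the others. The effect of leaving out both tumours is given after the counts.

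Of the 48 genes, 6 were called between the types (12.5%), against 4.64% of all genes tested. Kcne1l, Kcnc1, Kcnc4, Kcnh2 and Kcnip2 were higher in Type 1 (10.4% of the members, against 2.32% of all genes), and Kcna1 was higher in Type 2 (2.08%, against 2.32%). Kcnip2 was detected on no Type 2 array and so entered the test through Type 1 arrays alone. Over the members the median difference was 0.13, against -0.01 over all genes, and 33 of the 48 differences were positive (68.8%, against 49.4% of all genes). The median was 0.06 without Type 1 tumour 2, 0.23 without Type 1 tumour 6 and 0.22 without Type 2 tumour 6, and it was 0.06 with no background correction and 0.03 with no detection filter. For Kcnab2, Kcnj12 and Kcnj2, all near 0, the sign turned with the scaling. In Kcnc1 and Kcne1l every Type 1 tumour lay above every Type 2 tumour. The same held for Kcnip2, but only by 4.86 against 4.84, both near background, so little is read from it. With Kcnip2 counted this is 6.25% of the members, against 0.628% of all genes, or 1.23% of all genes in either direction. At an unadjusted p under 0.05 there were 19 members (39.6%, against 21.8% of all genes). Of these, 14 were higher in Type 1 (29.2%, against 10.8% of all genes). The other 5 were higher in Type 2 (10.4%, close to the 10.9% of all genes). Each tumour is bulk tissue, in which fewer cells of a type and less RNA per cell cannot be told apart.

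**Figure D1:**
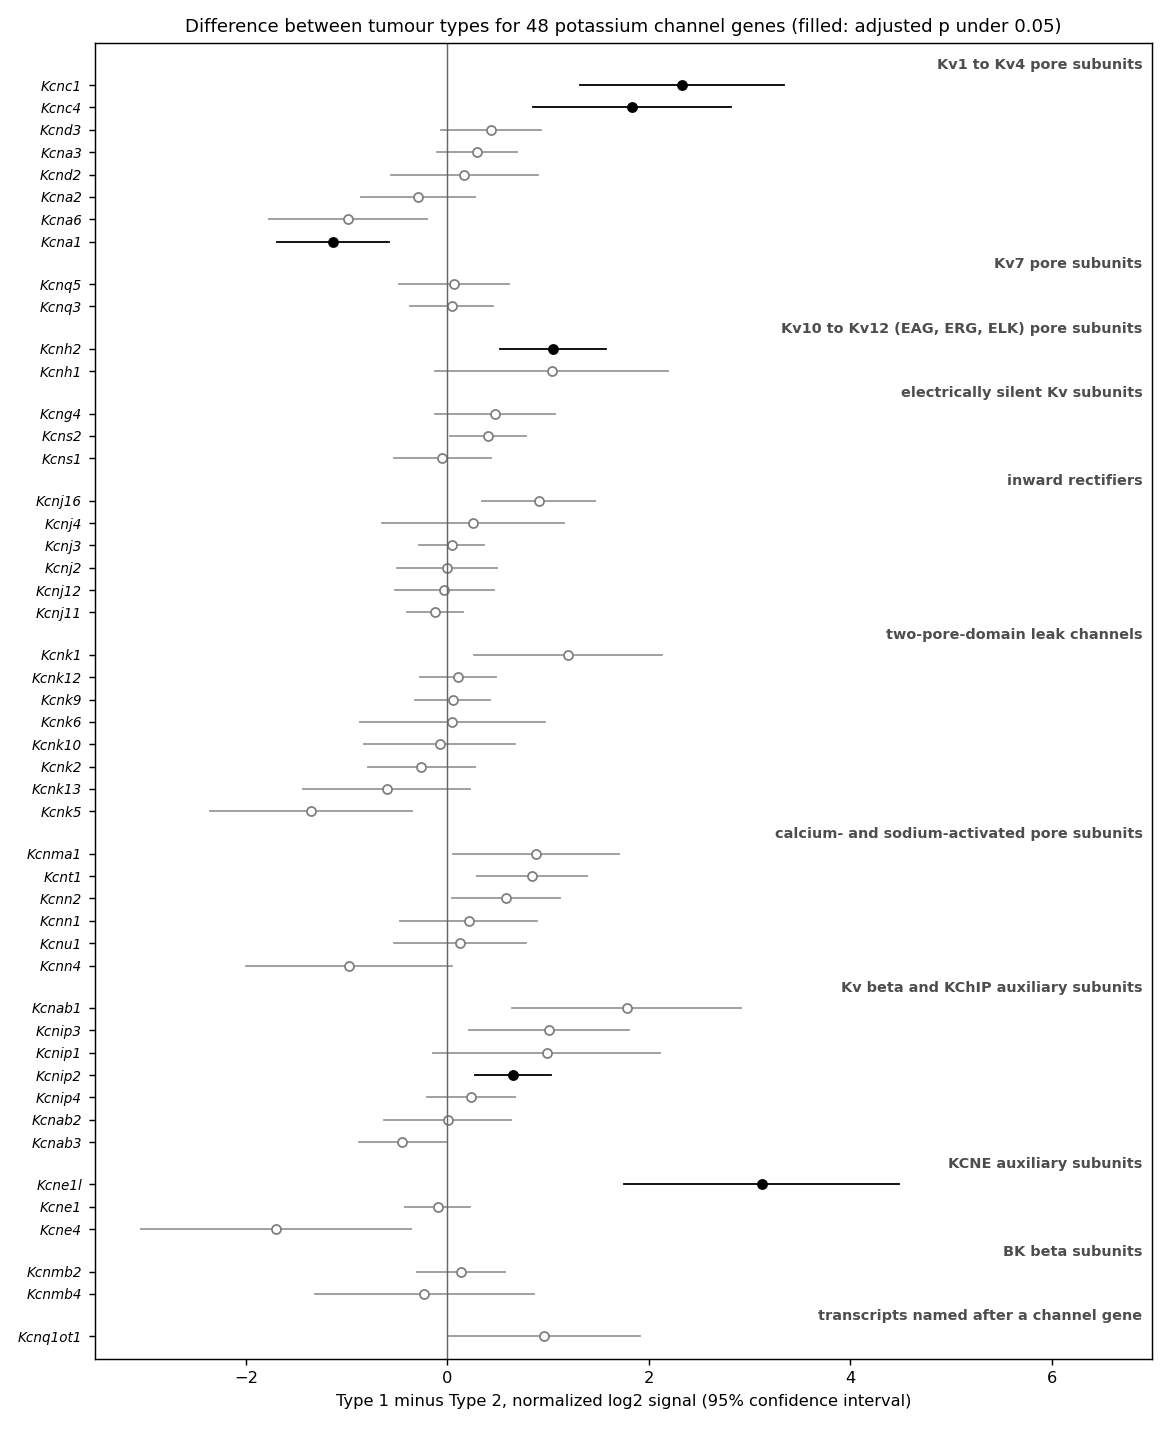
Type 1 minus Type 2 difference in normalized log2 signal for each of 48 potassium channel genes, grouped by family, with the 95% confidence interval as a line. Filled points mark the 6 called genes, which run from 3.12 (Kcne1l) to -1.14 (Kcna1).

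The count rested on single tumours. It was 3 without Type 1 tumour 1, 2 without Type 1 tumour 2, 3 without Type 1 tumour 5, 2 without Type 2 tumour 3, and 3 without Type 2 tumour 4, and between 4 and 8 without each of the others. A count can also hide a change of members. Without Type 2 tumour 5, Kcna1, Kcnc4, Kcnh2 and Kcnip2 lost their call (limma adjusted p of 0.0533 to 0.0799). Kcne4 (0.0430) and Kcnip3 (0.0368) passed in that fit. Kcnc1 and Kcne1l kept their call in all 14 of these fits. With both choroid-rich tumours left out, a setting chosen after seeing the data, the count was 0 by limma (0.899% of all genes). At an unadjusted p under 0.05 it was 14 (29.2%, against 16.5% of all genes), with Kcnc1 at 2.27 (limma adjusted p = 0.0759) and Kcne1l at 2.80 (limma adjusted p = 0.0713).

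The Kv3 subunits, fast high-threshold channels known from rapidly firing neurons, were both higher in Type 1. Kcnc1, which encodes Kv3.1, lies on chromosome 7 (46396219 to 46438706, GRCm38.p6). Its signal was 8.77 at the lowest, 9.24 at the median and 10.85 at the highest in Type 1, and 4.94, 7.51 and 8.37 in Type 2. The types did not overlap. The difference was 2.33 ± 0.47 (SE, 7 tumours per type), or 5.03-fold (limma adjusted p = 0.0165). It was 3.35 in batch 1 and 1.32 in batch 2. Type 2 tumour 4, at 4.94, was the single tumour in which the Kcnc1 probe was not detected.

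Kcnc4, which encodes Kv3.4, lies on chromosome 3 (107438298 to 107460287). Its signal was 8.53, 9.19 and 10.68 at the lowest, median and highest in Type 1, and 5.74, 7.28 and 9.74 in Type 2. The types overlapped through Type 2 tumour 6, whose 9.74 exceeded 6 of the 7 Type 1 tumours, and the lowest Type 2 value was again that of tumour 4. The difference was 1.83 ± 0.46 (SE), or 3.57-fold (limma adjusted p = 0.0398), with 2.52 in batch 1 and 1.15 in batch 2. A second Kcnc4 probe, detected on 3 arrays, differed by 0.58. The call was lost without any of 10 of the 14 tumours, at an adjusted p of up to 0.0900. Kcnc2, the remaining Kv3 gene on the array, had 6 probes and was detected on 0 arrays.

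**Figure D2:**
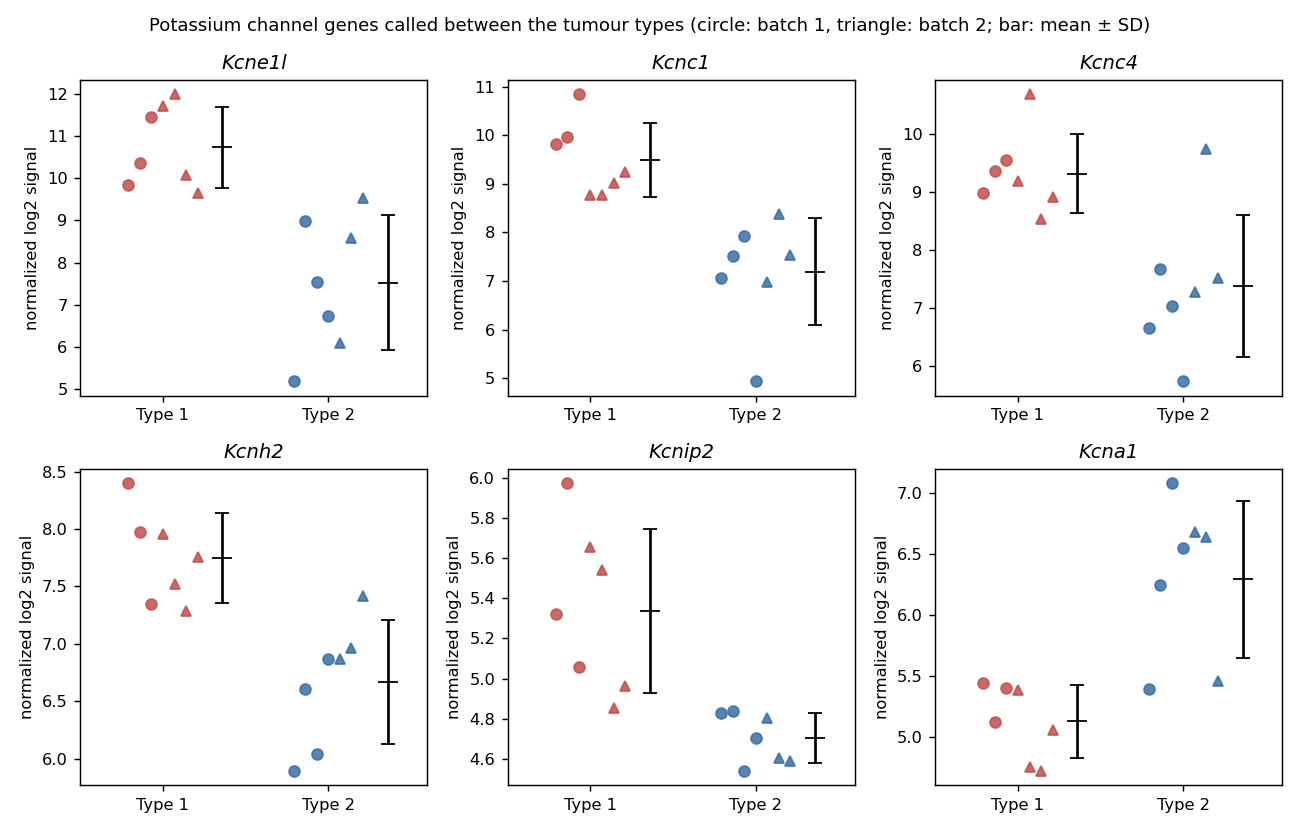
Normalized log2 signal of the 6 called genes in each tumour, Type 1 left of Type 2, circles for batch 1 and triangles for batch 2, with the mean and SD beside each group. Kcne1l and Kcnc1 show no overlap between the types. Kcnip2 shows none either, but its groups lie near background and no Type 2 array detected it. Kcna1 is the gene with the higher values in Type 2. The vertical axes do not start at 0.

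The largest difference of the family was that of Kcne1l, a KCNE accessory subunit also known as Kcne5, which in expression systems alters the currents of Kv7 and Kv4 channels. It is a small gene of the X chromosome (142304753 to 142306198). Type 1 tumours had 9.66 at the lowest, 10.37 at the median and 12.003 at the highest. Type 2 tumours had 5.18, 7.54 and 9.53, and Type 2 tumour 1 was the one in which it was not detected. The highest Type 2 tumour stayed just under the lowest Type 1 tumour. The difference was 3.12 ± 0.64 (SE, 7 tumours per type), or 8.70-fold (limma adjusted p = 0.0170). It was 3.44 in batch 1 and 2.80 in batch 2. Its residual SD of 1.34 was the highest among the 48 genes, against a median of 0.533 over the members and 0.409 over all genes.

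Promoters are shown for Kcne1l, Kcnc1 and Kcnc4, the members with the largest positive differences. The table of RefSeq promoters (GRCm38.p6) held 37 of the 48 genes. Shown are the 250 bases before a RefSeq transcript start, 5′ to 3′ on the strand of the gene. They lie at chrX:142306199-142306448 (minus strand), chr7:46396218-46396467 (plus) and chr3:107458899-107459148 (minus). The Kcne1l stretch lies outside the gene span, which ends at 142306198. All but the first base of the Kcnc1 stretch lies inside the gene span, which starts at 46396219. The Kcnc4 stretch also lies inside its gene span, which on the minus strand starts at 107460287. For Kcnc1 and Kcnc4 the transcript start used is thus internal to the gene, and the letters are not those upstream of the whole gene. Capitals mark the GC box, GGGCGG or its reverse complement CCGCCC.
Kcne1l: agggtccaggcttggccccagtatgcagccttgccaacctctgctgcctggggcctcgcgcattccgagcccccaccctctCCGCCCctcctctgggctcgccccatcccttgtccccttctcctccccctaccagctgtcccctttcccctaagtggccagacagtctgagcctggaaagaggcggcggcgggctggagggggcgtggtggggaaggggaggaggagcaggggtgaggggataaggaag
Kcnc1: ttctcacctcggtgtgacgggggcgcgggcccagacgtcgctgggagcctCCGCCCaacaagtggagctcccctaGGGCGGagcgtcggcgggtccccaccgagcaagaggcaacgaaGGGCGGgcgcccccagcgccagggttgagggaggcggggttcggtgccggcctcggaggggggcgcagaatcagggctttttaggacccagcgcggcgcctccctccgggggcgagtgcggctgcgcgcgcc
Kcnc4: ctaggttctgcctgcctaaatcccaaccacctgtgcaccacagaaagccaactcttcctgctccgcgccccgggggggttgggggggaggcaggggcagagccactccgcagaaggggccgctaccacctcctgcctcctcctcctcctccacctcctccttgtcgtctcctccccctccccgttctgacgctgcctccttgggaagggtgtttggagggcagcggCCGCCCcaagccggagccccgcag
Kcnc1 held 3 GC boxes, Kcnc4 held 1 and Kcne1l held 1. Of all 32851 promoters in the table, 32.7% held at least 1. The E-box CANNTG, searched on both strands, occurred once in each of the 3 sequences and in 66.2% of all promoters, and the TATA box TATAAA (or TTTATA) occurred in none of the 3 and in 12.4% of all. No match overlapped a match to another motif. The Kcnc1 promoter had 30 CpG dinucleotides, Kcnc4 had 12 and Kcne1l had 9, against a median of 6 over all promoters. These matches describe the letters only.

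Kcna1 encodes Kv1.1, a low-threshold channel of axons whose loss causes seizures in mice, and lies on chromosome 6 (126636463 to 126645801). Its probe was detected in 3 of the 7 Type 1 and in all 7 Type 2 tumours. Its signal was 4.72, 5.12 and 5.44 at the lowest, median and highest in Type 1, and 5.39, 6.55 and 7.08 in Type 2. Type 2 tumours 1 and 7 lay at 5.39 and 5.46, beside the highest Type 1 tumour, and the other 5 Type 2 tumours lay at 6.25 or above. The difference was -1.14 ± 0.26 (SE, 7 tumours per type; limma adjusted p = 0.0281), with -0.99 in batch 1 and -1.28 in batch 2. Left out in turn, 6 of the 14 tumours ended the call, with an adjusted p of up to 0.0661.

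Kcna6, which encodes Kv1.6 and lies near Kcna1 on chromosome 6, had 11.20 at the median in Type 1 (10.62 to 11.68) and 12.18 in Type 2 (10.64 to 13.76). The difference of -0.98 ± 0.37 (SE) did not pass (limma adjusted p = 0.136). All 4 of its detected probes had a lower mean in Type 1, with differences between -1.06 and -0.58. The lowest Type 2 value was that of tumour 1, and without that tumour Kcna6 passed at -1.23 (limma adjusted p = 0.0298). Kcna2, the Kv1.2 gene, had 7.60 ± 0.40 in Type 1 and 7.93 ± 0.61 in Type 2 (SD, n = 7 each). Kcna3, the Kv1.3 gene of T cells and microglia, had 6.04 ± 0.35 in Type 1 and 5.71 ± 0.31 in Type 2.

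Of the Kv4 genes, which carry rapidly inactivating currents in dendrites, Kcnd2 was detected on all 14 arrays, with 10.49 ± 0.52 in Type 1 and 10.28 ± 0.80 in Type 2 (SD, n = 7 each; 95% confidence interval of the difference -0.56 to 0.90). Kcnd3 was detected in 5 Type 1 and 2 Type 2 tumours, with a difference of 0.43 that did not pass, and neither Kcnd1 probe in more than 2 tumours, too few to be tested. Over the 8 tested Kv1, Kv3 and Kv4 genes, 2 were called higher in Type 1, 1 was called higher in Type 2 and 5 were uncalled (median 0.23). The share of all genes called was 2.32% in each direction.

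Kcnh2 encodes ERG1, the channel best known for repolarizing the heart, and lies on chromosome 5 (24319589 to 24351684). Its signal was 7.29, 7.75 and 8.40 at the lowest, median and highest in Type 1, and 5.90, 6.87 and 7.42 in Type 2. Only Type 2 tumour 7, at 7.42, reached the range of Type 1. The difference was 1.05 ± 0.25 (SE), or 2.07-fold (limma adjusted p = 0.0308), and a second probe differed by 1.26. Within batches it was 1.55 and 0.55. The call was lost without any of Type 1 tumours 1 (adjusted p = 0.0618) and 2 (0.0763) and Type 2 tumours 3 (0.0568) and 5 (0.0533), by limma. Its relative Kcnh1, the EAG1 gene, had 4.76 to 8.73 in Type 1 and 4.70 to 7.11 in Type 2 (difference 1.04 ± 0.54, SE; limma adjusted p = 0.286). The other 6 Kcnh genes on the array were detected on at most 1 array.

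Among accessory subunits of Kv channels, 7 of 7 Kv beta and KChIP genes were tested (median 0.65). Of these, 6 had a positive difference (49.4% of all genes) and 1 was called (4.64% of all genes). That gene was Kcnip2, a calcium-binding KChIP partner of Kv4 channels, on chromosome 19. It had 4.86, 5.32 and 5.97 at the lowest, median and highest on Type 1 arrays, where 3 of 7 detected it, and 4.54, 4.71 and 4.84 on Type 2 arrays, where none did. Both groups lay near background, so no fold is given, and the limma adjusted p of 0.0492 stood at the threshold. It was lost without any of 11 of the 14 tumours and under 7 further settings, among them median scaling (0.0548) and the authors' values (0.0605). It was also lost at the stricter threshold of 0.01.

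Kcnab1, the Kv beta 1 gene, whose protein closes Kv1 channels by inactivation, had 6.80, 8.27 and 9.13 in Type 1 and 4.77, 6.32 and 7.96 in Type 2. Its probe was detected in all 7 Type 1 and in 4 Type 2 tumours. In batch 1 all 3 Type 1 tumours lay above all 4 Type 2 tumours, with a difference of 3.25 (limma adjusted p within the batch 0.0221). The probe was detected in only 1 of those 4 Type 2 tumours, so that size rests in part on undetected values. In batch 2 the types overlapped, with a difference of 0.30. Over both batches it was 1.78 ± 0.53 (SE; limma adjusted p = 0.0676). Kcnab1 passed without Type 1 tumour 6, Type 1 tumour 7 or Type 2 tumour 7, at a limma adjusted p of 0.0471 to 0.0483. Its 3 detected probes all had a higher mean in Type 1. Kcnip3, also known as DREAM or calsenilin, had 10.98 ± 0.60 in Type 1 and 10.00 ± 0.85 in Type 2 (SD, n = 7 each; difference 1.01, limma adjusted p = 0.133). Without Type 2 tumour 5 Kcnip3 passed at 1.34 (limma adjusted p = 0.0368). Kcnip1 had 7.55 ± 0.89 in Type 1 and 6.63 ± 1.25 in Type 2, where tumours 1 and 7 were lowest, at 4.81 and 4.91. Kcnab2 differed least, at 10.41 ± 0.58 in Type 1 and 10.38 ± 0.57 in Type 2 (95% confidence interval of the difference -0.63 to 0.64). Kcnab3 had 5.94 ± 0.31 in Type 1 and 6.37 ± 0.41 in Type 2.

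The other KCNE genes did not follow Kcne1l. Kcne4, which dampens Kv1 and Kv7 currents, was detected in 4 of the 7 Type 1 and in all 7 Type 2 tumours. Its signal was 5.14, 5.72 and 8.30 at the lowest, median and highest in Type 1, and 5.75, 7.75 and 9.45 in Type 2. Type 1 tumour 6 was high within its group, and Type 2 tumours 2 and 5 were low within theirs. The difference of -1.70 ± 0.63 (SE) did not pass (limma adjusted p = 0.133). Without Type 2 tumour 5 Kcne4 passed at -2.23 (limma adjusted p = 0.0430). Kcne1 was detected on 3 arrays and differed by -0.10, and Kcne3 was detected on none. Kcne1l and Kcne4 had the highest residual SDs of all 48 genes, 1.34 and 1.31.

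None of the 6 tested inward rectifiers was called by limma, and 1 had an unadjusted p under 0.05. Over all genes the shares were 4.64% and 21.8%. Kcnj16, which encodes Kir5.1, a subunit that astrocytes pair with Kir4.1, came closest. It had 7.21, 7.64 and 8.19 at the lowest, median and highest in Type 1, and 5.90, 6.86 and 7.55 in Type 2. The difference was 0.91 ± 0.26 (SE), short of the threshold (limma adjusted p = 0.0611). Without Type 2 tumour 2 Kcnj16 passed at 1.03 (limma adjusted p = 0.0332). The batches gave 0.71 and 1.10. Kcnj4 had 6.81 ± 0.97 in Type 1 and 6.51 ± 0.70 in Type 2 (SD, n = 7 each), and Kcnj2 and Kcnj3 differed by 0.00 and 0.04. Kcnj11, the pore of ATP-sensitive channels, was detected in 1 Type 1 and 3 Type 2 tumours and differed by -0.12. Kcnj12 differed by -0.03. Over the 6 genes the median was 0.02. The Kir4.1 gene Kcnj10 was not among the 82 genes taken from the array, so nothing here covers it.

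None of the 8 tested two-pore-domain genes was called by limma either, with 2 at an unadjusted p under 0.05, and 4 had a higher and 4 a lower mean in Type 1. Of all genes 21.8% had such an unadjusted p and 4.64% were called. Kcnk1, the TWIK-1 gene of astrocytes, had 9.95, 10.80 and 12.62 at the lowest, median and highest in Type 1, and 8.62, 9.66 and 10.89 in Type 2. In batch 1 the types did not overlap (difference 2.48, limma adjusted p within the batch 0.0403), and in batch 2 the difference was -0.08. Over both it was 1.20 ± 0.44 (SE; limma adjusted p = 0.129). Kcnk5, the TASK-2 gene, whose channel opens in alkaline surroundings, had 5.46, 7.14 and 8.21 at the lowest, median and highest in Type 1, and 6.48, 8.65 and 9.18 in Type 2. The types overlapped widely, and the difference was -1.35 ± 0.47 (SE; limma adjusted p = 0.111). With Type 2 tumour 2 left out Kcnk5 passed (limma adjusted p = 0.0382). The mechanosensitive TREK-1 gene Kcnk2 had 9.72 ± 0.53 in Type 1 and 9.89 ± 0.57 in Type 2. The microglial genes Kcnk6 and Kcnk13 differed by 0.05 and -0.60. For Kcnk6 the batches went opposite ways, with 1.15 in batch 1 and -1.05 in batch 2, neither called by limma.

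The calcium- and sodium-activated genes gave no call among 6 by limma, with 3 at an unadjusted p under 0.05 and a median of 0.40. Again, 4.64% of all genes were called and 21.8% had such an unadjusted p. Kcnt1, which encodes the sodium-activated channel Slack, was detected in all 7 Type 1 and in 3 Type 2 tumours. It had 5.55, 6.10 and 6.70 at the lowest, median and highest in Type 1, and 4.55, 4.83 and 6.43 in Type 2 (difference 0.85 ± 0.26, SE; limma adjusted p = 0.0707). Kcnt1 passed without Type 1 tumour 6 and without Type 2 tumour 6, at a limma adjusted p as low as 0.0253. In batch 1 the probe was detected in none of the 4 Type 2 tumours, so no size is given there, although the gene passed (limma adjusted p = 0.0191). In batch 2 the difference was 0.23. The BK channel gene Kcnma1 had 7.09 ± 0.86 in Type 1 and 6.28 ± 0.73 in Type 2, and its 3 detected probes differed by 0.88, 0.92 and 0.39. Its beta subunit gene Kcnmb4, the neuronal form, had 8.36 ± 0.99 in Type 1 and 8.51 ± 1.12 in Type 2. The intermediate-conductance gene Kcnn4, studied in immune cells and in glioma cell migration, was detected in 1 Type 1 and 5 Type 2 tumours. Type 2 tumour 3 had 8.88, and every other tumour had at most 6.72. The small-conductance gene Kcnn2 was detected in 4 Type 1 tumours and 1 Type 2 tumour and differed by 0.58 ± 0.25 (SE; limma adjusted p = 0.193). Kcnu1, which encodes the sperm channel Slo3 in mouse, was detected on all 14 arrays, with 7.89 ± 0.57 in Type 1 and 7.76 ± 0.61 in Type 2.

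The Kv7 genes Kcnq3 and Kcnq5 differed by 0.04 and 0.07. The electrically silent subunit genes Kcns1, Kcns2 and Kcng4 differed by -0.05, 0.41 and 0.47, none of them called. Kcnq1ot1, the antisense RNA of the imprinted Kcnq1 domain, had 7.31 ± 0.67 in Type 1 and 6.45 ± 1.16 in Type 2 (SD, n = 7 each). Type 2 tumour 1 stood at 8.91, above all others, and the remaining 6 Type 2 tumours at 5.39 to 6.44. The difference was 0.96 ± 0.44 (SE; limma adjusted p = 0.225).

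**Figure D3:**
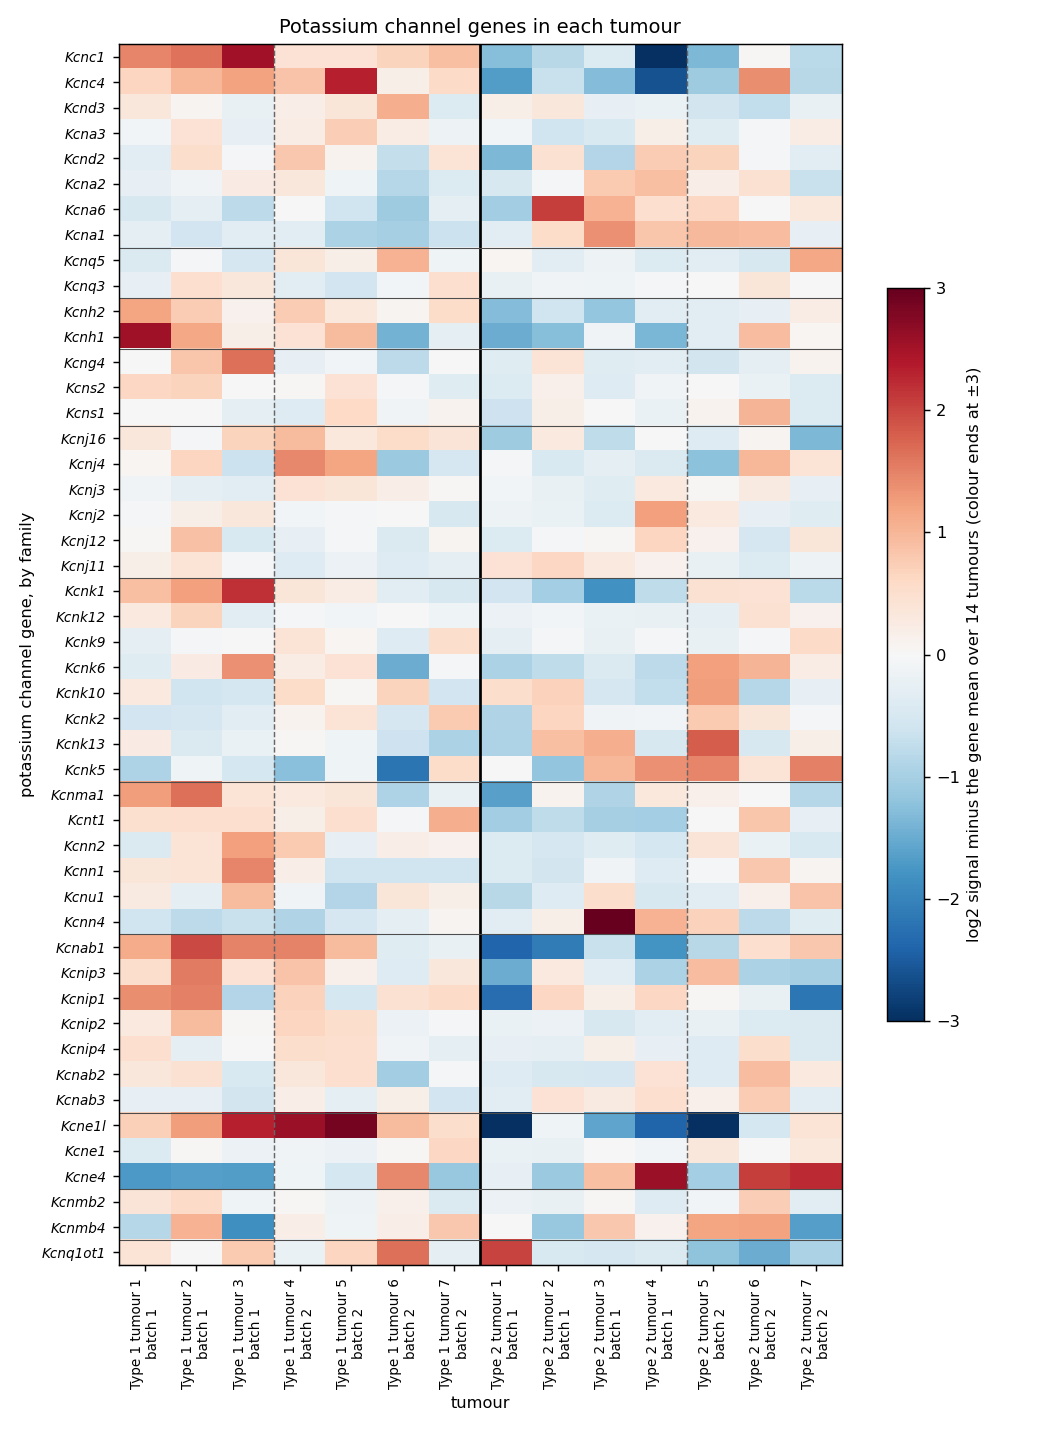
Each cell gives a gene's normalized log2 signal in 1 tumour minus its mean over the 14 tumours, red above and blue below, with Type 1 left of the solid line and batches split by dashed lines. In batch 1 all 3 Type 1 tumours are red and all 4 Type 2 tumours blue for Kcnc1, Kcnc4 and Kcnab1.

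Tumours differed in how many of the 48 genes peaked in them. Among Type 1 tumours, tumour 2 held the highest value of 9 genes and tumour 3 of 7, and tumour 6 held the lowest value of 8. Among Type 2 tumours, tumour 6 held the highest value of 6 genes, and tumour 1 held the lowest value of 11. Between 34 and 40 of the 48 genes were detected per Type 1 tumour and between 30 and 38 per Type 2 tumour. Of the 48 genes, 19 were detected on all 14 arrays.

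The median difference of the members was 0.31 in batch 1 and 0.00 in batch 2, against -0.02 and 0.00 over all genes, and 31 of 48 had the same sign in both batches (64.6%, against 54.7% of all genes). In batch 1 alone Kcnab1, Kcnc4, Kcnk1 and Kcnt1 were called, 4 of 48 (8.33%, against 1.41% of all genes), all higher in Type 1 (1.06% of all genes). The Kcnt1 probe was detected in no Type 2 tumour of that batch, and the Kcnab1 probe in 1 of 4. In batch 2 alone 0 of 48 were called by limma (1.04% of all genes), and 8 had an unadjusted p under 0.05 (16.7%, against 19% of all genes). Whether the difference itself changed between batches was tested as an interaction, which 0 of 48 members passed by limma (0% of all genes). At an unadjusted p under 0.05 there were 9 (18.8%, close to the 16.4% of all genes). With chip as a random block 10 members passed (20.8%), against 22.1% of all genes in that fit, so this count too was near the share of all genes. Each chip held tumours of 1 type and batch, and the estimated correlation within chips was negative (-0.242). That fit cannot tell chip from the interaction, and no conclusion is drawn from it. In all 9 members at an unadjusted p under 0.05 the Type 1 minus Type 2 difference was larger in batch 1, a direction taken by 8.97% of all genes. The lowest p-values were those of Kcnk1 (interaction -2.56, limma adjusted p = 0.0939), Kcnn1, a small-conductance gene with differences of 1.11 in batch 1 and -0.68 in batch 2 (-1.79, 0.112), and Kcnab1 (-2.95, 0.117). Kcnk6 (-2.20, 0.148) and Kcnh1 (-2.65, 0.175) came next. The Kcnab1 and Kcnh1 probes were each detected in 1 of the 4 Type 2 tumours of batch 1. The interaction sizes of Kcnab1 and Kcnh1 thus rest in part on undetected values.

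**Figure D4:**
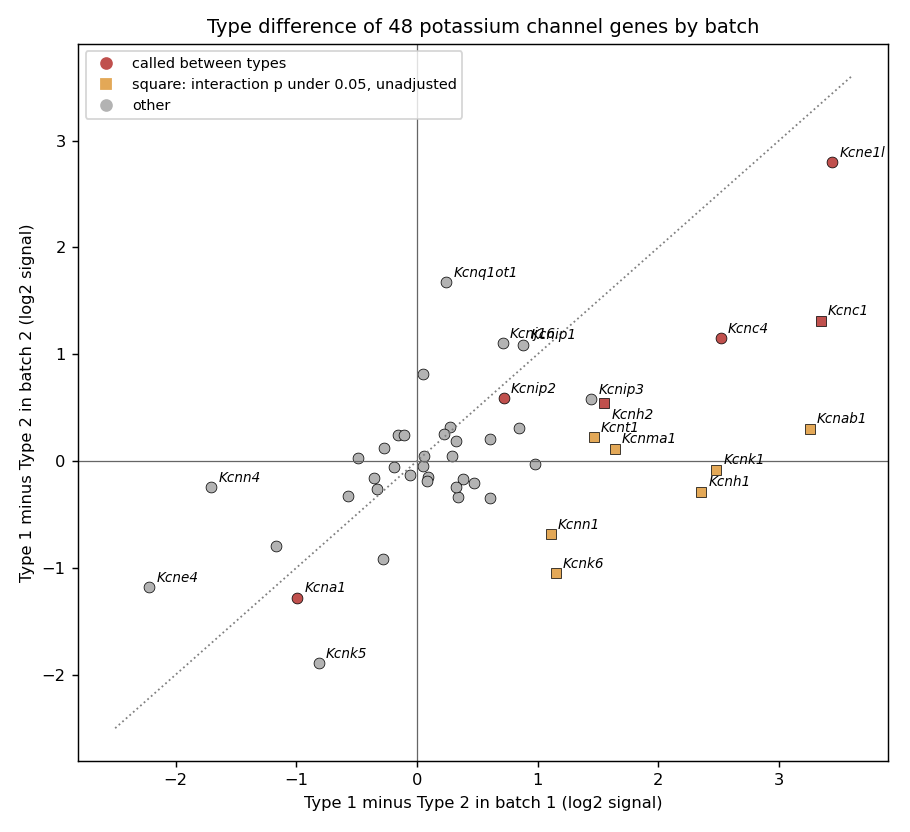
Type 1 minus Type 2 difference in normalized log2 signal in batch 1 (horizontal) and batch 2 (vertical) for 48 potassium channel genes, with the line of equal differences dotted, called genes in red and squares for an unadjusted interaction p under 0.05. Kcne1l, at 3.44 and 2.80, lies near that line, and Kcnab1, at 3.25 and 0.30, and Kcnk1, at 2.48 and -0.08, lie far below it. The Kcnab1 probe was detected in 1 of the 4 Type 2 tumours of batch 1.

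Between the batches themselves 1 of the 48 genes was called (2.08%, against 10.7% of all genes). By direction 0 of 48 were higher in batch 2 (6.25% of all genes) and 1 was lower (4.42%). That gene was Kcnj11 (limma adjusted p = 0.0126), whose probe was detected in 4 of the 7 batch 1 tumours and in none of batch 2, so that it entered the test through batch 1 alone and no size is read from its fitted difference of -0.56. The fitted value was -0.11 with the authors' values (limma adjusted p = 0.999) and -0.17 with no background correction (0.0534), and the call also ended with both choroid-rich tumours left out (0.0539). Its residual SD of 0.169 was the lowest of the 48.

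Genes whose products work beside potassium channels were listed by function. Of 9 genes for Kv1 clustering and the axon, 2 were called higher in Type 1 (Lgi1 and Amigo1) and 1 in Type 2 (Adam23), and 6 were uncalled (median 0.77). The share of all genes called was 2.32% in each direction. At an unadjusted limma p under 0.05 there were 5 of these 9 genes, against 21.8% of all genes. Lgi1, a secreted protein that binds Kv1 complexes, was detected in all 7 Type 1 tumours and in 1 Type 2 tumour, with 6.54 ± 0.67 in Type 1 and 4.90 ± 0.31 in Type 2 (SD, n = 7 each; difference 1.63, limma adjusted p = 0.00769). Amigo1, an accessory protein of Kv2 channels, differed by 1.37 (limma adjusted p = 0.0118). Its call ended with both choroid-rich tumours left out (limma adjusted p = 0.0640). Adam23, a receptor of Lgi1, differed by -1.49 (limma adjusted p = 0.0429), a call lost without any of 10 of the 14 tumours and with both choroid-rich tumours left out (limma adjusted p = 0.136). Of the pacemaker channel genes measured, Hcn3 was higher in Type 1, at 7.31 ± 0.52 against 6.15 ± 0.25 in Type 2 (SD, n = 7 each; limma adjusted p = 0.00908), and Hcn2 did not pass. With the mean of its detected probes Hcn3 differed by 0.57 (limma adjusted p = 0.0523), and with both choroid-rich tumours left out by 0.92 (0.0568), neither of which passed. None of 2 Kv4 partners, 2 BK gamma subunits, 1 sulfonylurea receptor, 6 sodium-potassium pump genes and 3 chloride transporters was called by limma, and 0, 0, 1, 1 and 2 of them had an unadjusted p under 0.05. Their medians were 0.23, -0.09, -0.69, 0.01 and -0.62 in that order. Over all genes 4.64% were called and 21.8% had an unadjusted limma p under 0.05.

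Markers of several cell types moved with these differences, and their part in the results was not tested. Of 13 mature neuron markers 10 were measured, of which Rbfox3 was called higher in Type 1 and the others were uncalled. All 10 differences were positive (median 1.14; 1.74 in batch 1 and 0.53 in batch 2). The list mean per tumour was 8.68 to 10.5 in Type 1 and 7.31 to 10.06 in Type 2. Snap25, Nefl and Nefh had no probe in the test. Of 14 astrocyte markers 5 were higher in Type 1 (Aqp4, Slc1a2, Sox9, Slc4a4 and Ntsr2) and 1 in Type 2 (S100b; median 1.38), with list means of 9.95 to 11.38 in Type 1 and 8.73 to 9.92 in Type 2. Of 10 measured neuroblast markers 4 (Elavl3, Elavl4, Dcx and Igfbpl1) were higher in Type 1 (median 0.96, 7.76 to 8.60 in Type 1 and 6.27 to 7.79 in Type 2). At an unadjusted limma p under 0.05 the counts were 6 of 10 neuron, 9 of 14 astrocyte and 6 of 10 neuroblast markers. Of all genes 21.8% had such a p and 4.64% were called, in either direction.

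In the other direction, endothelial markers gave 2 of 9 higher in Type 2 (Vwf and Tie1; median -0.76; 7.01 to 7.89 in Type 1 and 8.12 to 8.65 in Type 2), mural markers 1 of 8 (Rgs5; median -0.79; 6.74 to 7.45 in Type 1 and 7.33 to 8.12 in Type 2) and fibroblast markers 2 of 5 (Lum and Col1a1; median -0.68; 6.55 to 7.27 in Type 1 and 7.44 to 9.22 in Type 2). Col1a1 was detected on 0 Type 1 and 6 Type 2 arrays and so entered the test through Type 2 arrays alone. The same held for Col1a2, detected on 0 Type 1 and 4 Type 2 arrays. Little is therefore read from the fibroblast counts. Of 10 oligodendrocyte progenitor markers 1 was higher in Type 2 (Sox10, which the Schwann list also holds; median -0.59), with list means of 9.79 to 11.92 in Type 1 and 10.79 to 11.71 in Type 2. Microglia and macrophage markers gave 0 of 9 by limma, also at an unadjusted p under 0.05 (median 0.02; 0.80 in batch 1 and -0.75 in batch 2). Pigment and Schwann lineage markers gave 5 of 6 higher in Type 2 (Dct, Pmel, Dhh, Sox10 and Ngfr, median -2.88) and myelin markers 3 of 8 (Cnp, Cldn11 and Ugt8a, median -0.59). Choroid plexus markers gave 0 of 7 by limma, also unadjusted (median 0.36). The 3 fibroblast markers at an unadjusted limma p under 0.05 were Lum, Col1a1 and Col1a2. Unadjusted limma p-values under 0.05 were found for 7 of 9 endothelial, 5 of 8 mural and 3 of 5 fibroblast markers. They were found for 3 of 10 oligodendrocyte progenitor, 6 of 6 pigment and Schwann and 3 of 8 myelin markers, against 21.8% of all genes.

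**Figure D5:**
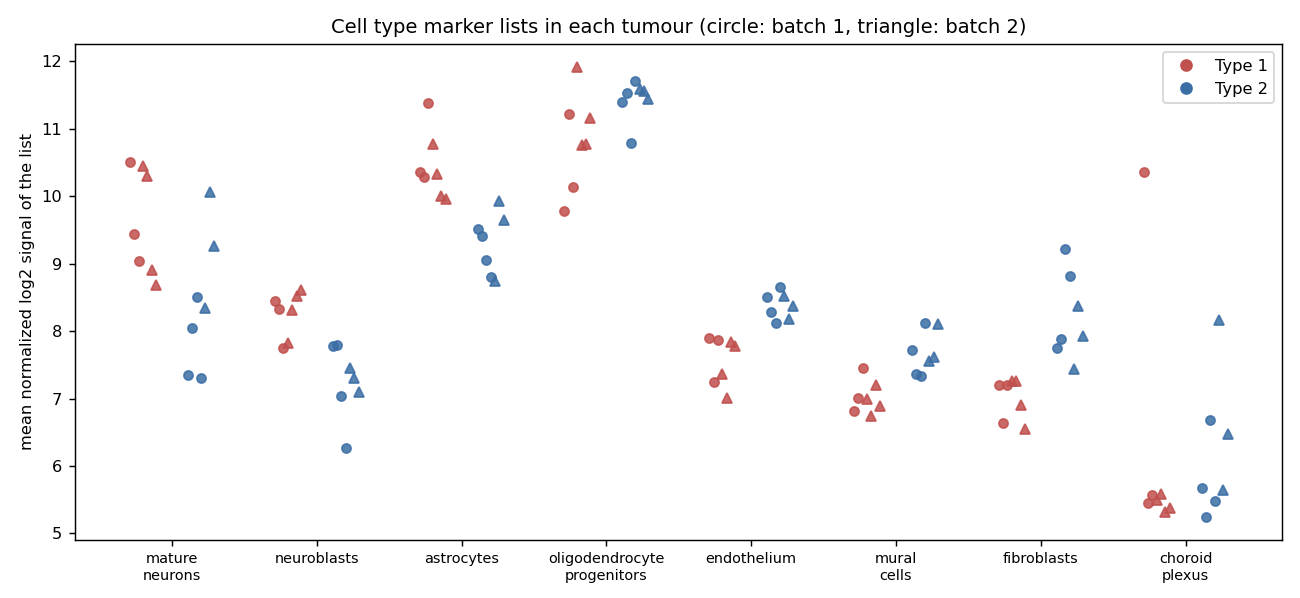
Mean normalized log2 signal of each cell type marker list in each tumour, Type 1 left of Type 2 within a list, circles for batch 1 and triangles for batch 2. Astrocyte means of Type 1 (9.95 to 11.38) lie above those of Type 2 (8.73 to 9.92), neuron means overlap, and Type 1 tumour 1 stands apart in choroid plexus genes at 10.35.

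The remaining 34 genes had no probe detected on 3 arrays and were not tested. Of these, Kcnd1 and Kcnj6 were detected on 2 arrays at most. Kcna5, Kcng2, Kcnh5, Kcnj14, Kcnj15, Kcnmb1, Kcnn3 and Kcnq1 were detected on 1 array at most. The others were detected on 0 arrays: Kcna4, Kcna7, Kcna10, Kcnc2, Kcne3, Kcng1, Kcng3, Kcnh3, Kcnh4, Kcnh6, Kcnh7, Kcnh8, Kcnj1, Kcnj5, Kcnj9, Kcnk3, Kcnk4, Kcnk7, Kcnk15, Kcnk16, Kcnk18, Kcns3, Kcnt2 and Kcnv2. Among the tested genes not described so far, Kcnip4, Kcnk9, Kcnk10, Kcnk12 and Kcnmb2 differed by between -0.08 and 0.24, and none was called.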

How the data were processed

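Total RNA of 14 tumours was labelled with biotin and hybridised to 1-colour Illumina mouse bead arrays. The deposited table used here holds, per the file headers, the mean bead intensity of 45281 probes on each array. It pairs each intensity with a detection p-value, as deposited, and carries no normalization. The submitters' processing notes name BeadStudio. A second deposited table holds log2 values processed by the authors by a method not given in the sources used here, with probe centring unknown. These were used as an alternative.

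The neqc function of limma 3.58.1 (R 4.3.3) corrected the background by means of the detection p-values, added an offset of 16, and applied quantile normalization and log2. Probes were named by GEO's platform annotation, whose symbols may be dated. The brightest probe of those detected stood for its gene. Of 12 members with several detected probes, Kcne1 and Kcnk2 had probes of opposite sign. Types, batch and interaction were tested with limma (lmFit, eBayes), after a test on simulated data. Replicate numbers follow accession order and pair nothing; a p-value here reflects only how these tumours vary, and the number of arrays limits the precision. Named genes were all called members, the 10 uncalled ones with the lowest p, and the leading genes of each family, batch and interaction test and residual SD; others appear by counts, ranges or means. Members and lists were chosen with earlier results of these data known. Alternatives covered normalization, filters, probes, weights, chip, thresholds and leaving out tumours. One element of the design is left unreported.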

Additional observations from a re-analysis of the deposited data

Results flagged for a closer look

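Within each type of 7 tumours, 96 groups (48 genes in 2 types) were examined for a tumour far from the others, and 8 had one. Chance flags about 1 in 20 groups. Kcnc1 was lowest in Type 2 tumour 4, at 4.936, against 6.986 in the next tumour. Kcnq1ot1 was highest in Type 2 tumour 1, at 8.91, against 6.444. Kcnn2, at 5.712 in Type 2 tumour 5 against 5.113, Kcnq3, at 6.151 in Type 2 tumour 6 against 5.791, and Kcnmb2, at 5.843 in the same tumour against 5.151, each had 1 high tumour. In Type 2 tumour 7, Kcnq5 had 6.191 against 5.093, and Kcnk9 had 5.654 against 5.029. In Type 1 the only such case was Kcnj12, at 6.012 in tumour 2 against 5.209. Of the 8, all but Kcnc1, Kcnq1ot1 and Kcnq3 were detected on 5 or fewer arrays.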

How the results depend on the processing

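The number of potassium channel genes called between the types, 6, was 3 with no background correction, 0 at an adjusted p under 0.01 and 0 without both tumours highest in choroid plexus genes (chosen after seeing the data). It ranged from 2 to 8 with each tumour left out. The other settings gave 4 to 6. Over all genes the 547 calls ranged from 195 to 639 with each tumour left out and were 106 without both choroid-rich tumours, where 12 arrays were left. The count of members in the interaction test, 0, was 10 with chip as a random block (20.8%, against 22.1% of all genes), where the estimated correlation within chips was -0.242; each chip held tumours of 1 type and batch. Chip could thus not be told apart from the interaction in that fit, and no conclusion is drawn from it. The batch count of 1 was 0 with no background correction, 0 with the authors' values, 0 with probes detected on 7 or more arrays, 0 without both choroid-rich tumours, 2 with median scaling (Kcna2 and Kcnj11) and 2 with no detection filter (Kcnj11 and Kcnk4). No named called or near-called difference changed sign under any setting run; Kcnab2, Kcnj12 and Kcnj2, near 0, did so with the scaling. Kcnc1 and Kcne1l lost their call at the stricter threshold and without both choroid-rich tumours, and under no other setting. No paired analysis was possible because replicate numbers were given in accession order and pair nothing.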
